A study of Mus musculus with 6 samples.

Results

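The Usp17l family of mouse comprises short, closely related genes on chromosome 7 that encode deubiquitinases. The 5 genes named Usp17la to Usp17le were taken by symbol from a count table of 24028 genes, and all 5 were measured and passed the filter on low counts. RNA came from C2C12 cells, an immortalised mouse myoblast line, in which a single clone (MMH6) carries a codon-altered chimeric transgene. Its amino-terminal part, with the homeodomains, is that of mouse Dux, and the remainder is that of human DUX4. Induced cells received 2 µg/ml doxycycline (3 libraries) and uninduced cells of the same clone, under the same puromycin selection, received none (3 libraries). The time with doxycycline is given as 18 h in the series description and as 36 h in the sample protocol, so it is uncertain for every value. Doxycycline was given without the transgene to no cells analysed here, so drug and transgene cannot be told apart.

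Deubiquitinases of the Usp class are cysteine proteases that cut ubiquitin from other proteins and so can spare them from degradation or change their signalling. The first Usp17l genes, known as Dub1 (Usp17la) and Dub2 (Usp17lc), were found in mouse blood cells as genes switched on quickly by cytokines. The human relatives, called USP17 or DUB3, lie in tandem arrays, and mouse Usp17l transcripts are known from the embryo at the time its own genome is first transcribed.

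All 5 genes lay within 1.61 Mb of chromosome 7 in the RefSeq annotation of GRCm38.p6, in 2 places. Usp17ld (chr7:103250086-103252505, minus strand) and Usp17lc (chr7:103416696-103419174, plus strand) were 164 kb apart. After a further 1349 kb came Usp17le (chr7:104767961-104777470, minus strand), Usp17lb (chr7:104840257-104842583, minus strand) and Usp17la (chr7:104857016-104862667, plus strand), with gaps of 62.8 kb and 14.4 kb. GENCODE M21 gave each gene 2 to 4 exons and a coding length of 1404 bases (Usp17lb) to 1635 bases (Usp17lc and Usp17ld). The synonyms in RefSeq are Dub1a for Usp17lb, Dub2a for Usp17ld and Dub3 for Usp17le.

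How alike the copies are is shown by their coding sequence, since it bears on which copy a read can be given to. Around the codon of the catalytic cysteine (in capitals), 72 of 75 bases were the same in all 5 genes. Usp17la and Usp17lb were identical there, as were Usp17lc and Usp17ld, so 3 sequences stand for the 5 (GRCm38; chr7:104860322-104860396 for Usp17la, chr7:103417632-103417706 for Usp17lc, chr7:104769625-104769699 for Usp17le).
Usp17la: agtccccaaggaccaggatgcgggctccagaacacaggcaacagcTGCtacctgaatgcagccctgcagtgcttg
Usp17lc: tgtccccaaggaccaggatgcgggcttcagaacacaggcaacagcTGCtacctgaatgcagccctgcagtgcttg
Usp17le: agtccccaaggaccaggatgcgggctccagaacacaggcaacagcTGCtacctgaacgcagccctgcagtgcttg

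The least alike stretch of 60 bases within 900 bases after that codon began 540 bases downstream of it and still had 45 bases in common to all 5. Capitals mark the positions that were not the same in every member (GRCm38; chr7:104860907-104860966 for Usp17la, chr7:104840942-104841001 for Usp17lb, chr7:103418217-103418276 for Usp17lc, chr7:104769055-104769114 for Usp17le). Usp17ld was again identical to Usp17lc, and Usp17la and Usp17le differed at 3 positions.
Usp17la: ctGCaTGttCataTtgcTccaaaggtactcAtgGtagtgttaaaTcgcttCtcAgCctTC
Usp17lb: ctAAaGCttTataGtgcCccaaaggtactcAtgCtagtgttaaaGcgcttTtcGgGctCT
Usp17lc: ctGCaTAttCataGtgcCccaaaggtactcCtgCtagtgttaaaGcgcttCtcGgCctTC
Usp17le: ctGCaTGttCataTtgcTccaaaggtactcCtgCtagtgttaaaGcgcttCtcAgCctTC

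Over the whole coding sequence, Usp17lc and Usp17ld were 98.4% identical, against 90.7% to 94.5% for the other 9 pairs. Of all distinct runs of 50 bases in the annotated transcripts of Usp17ld, 50.4% also occurred in Usp17lc, and of those of Usp17lc 41.5% occurred in Usp17ld. For any other pair the share was at most 15.3%. With runs of 100 bases the shares were 39.5% for Usp17ld and 32.3% for Usp17lc. How the counter treated reads that fit several places is not given in the sources used here, so the values of single members, above all of Usp17lc and Usp17ld, are less certain than their sum.

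The libraries held 21.5 to 24.5 M counts. Across genes, libraries correlated at r = 0.993 to 0.997 within a group and at 0.837 to 0.844 between groups. The quasi-likelihood test of edgeR covered 12969 genes. With Benjamini-Hochberg adjustment and a threshold of 0.05, 41.3% of genes were higher and 41.2% lower in induced cells, so a call by itself sets no gene apart. At least 16-fold higher and past that threshold were 3.39% of genes tested. Levels are given as CPM, counts relative to the library total, with totals scaled by TMM, a method that takes the middle of all genes as unchanged. With library size alone, the median log2 fold change of all tested genes was -0.97 in place of -0.01. The myoblast markers Myod1, Myf5, Cdh15, Des and Chrna1 were all counted, with a summed level of 1100 to 1133 CPM in induced and 1795 to 1812 CPM in uninduced libraries, and 4 of the 5 were called lower.

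Transcripts of every Usp17l member were far higher in induced than in uninduced cells. Summed over the 5 genes, the level was 7841, 7831 and 7756 CPM in induced libraries, against 84.7, 88.3 and 82.4 CPM in uninduced libraries. All induced libraries stood at least 87.8-fold above the highest uninduced library. The log2 fold change of the sum was 6.52 ± 0.05 (SE, edgeR adjusted p = 1.8e-31), or 91.7-fold. With library size alone it was 5.56, or 47.0-fold. Of all counts, 0.559% ± 0.00613 fell on the family in induced cells and 0.0119% ± 0.000456 in uninduced cells (SD, n = 3 each). Cell number cannot be read from such data, and more RNA in each cell or more cells with such RNA cannot be told apart.

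**Figure D1:**
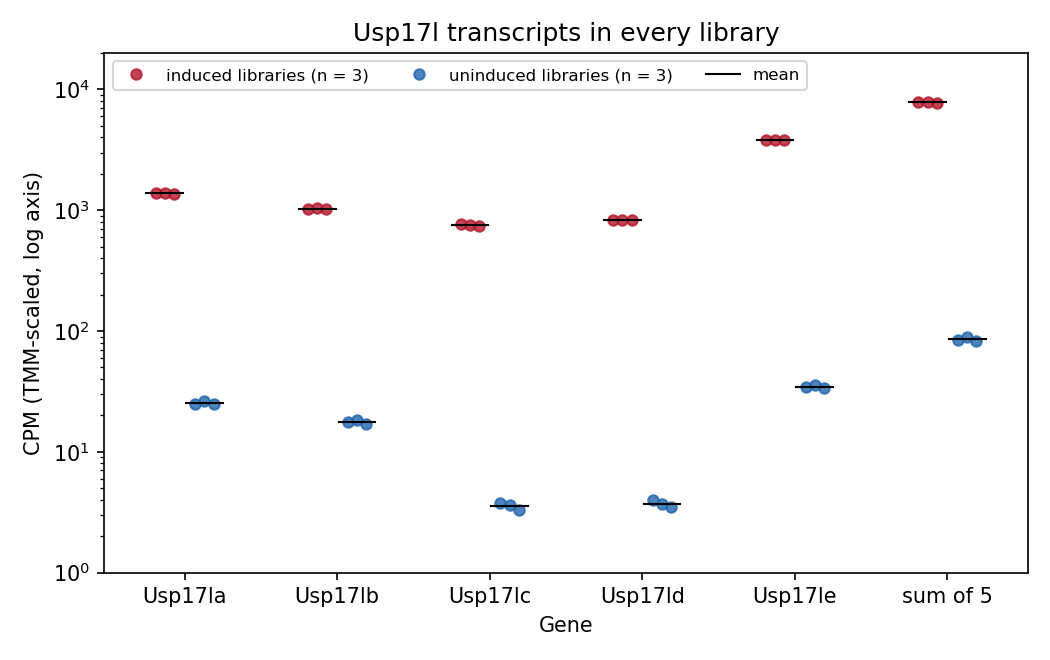
CPM of each Usp17l gene and of their sum in every library, on a log axis, with induced libraries left of uninduced libraries and black lines at the group means (n = 3 each). In every gene the induced libraries lie together and far above the uninduced ones, with the widest gap for Usp17lc and Usp17ld.

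Usp17le, the mouse gene that shares the name Dub3 with the best studied human relative, was the most abundant member in both groups. It had 3836, 3803 and 3808 CPM in induced libraries, against 34.2, 36.0 and 33.6 CPM in uninduced libraries. The groups did not overlap, and the log2 fold change was 6.78 ± 0.05 (SE, edgeR adjusted p = 8.4e-32), a 110-fold difference.

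Usp17la and Usp17lb, the Dub1 copies, had the smallest folds of the family. Usp17la was at 1385, 1399 and 1366 CPM in induced libraries and at 25.05, 26.49 and 25.04 CPM in uninduced libraries. The log2 fold change came to 5.76 ± 0.05 (SE, edgeR adjusted p = 9.9e-31), or 54.2-fold. Usp17lb was at 1023, 1047 and 1023 CPM in induced libraries and at 17.7, 18.4 and 16.9 CPM in uninduced libraries. Its log2 fold change was 5.87 ± 0.05 (SE, edgeR adjusted p = 1.4e-30), or 58.3-fold. These neighbours, 14.4 kb apart on opposite strands and 91.2% identical in coding sequence, were thus close in fold but not equal. The ratio of Usp17la to Usp17lb counts was 1.34 to 1.35 in induced and 1.42 to 1.48 in uninduced libraries (exact permutation p = 0.1, two-sided, the smallest possible here).

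Usp17lc and Usp17ld, the Dub2 copies, were the least abundant members by counts in both groups and had the largest folds. Their levels beside those of other members depend on how reads shared between copies were counted, which is not given. Usp17lc was at 766, 752 and 737 CPM in induced libraries and at 3.77, 3.66 and 3.31 CPM in uninduced libraries. The log2 fold change came to 7.71 ± 0.06 (SE, edgeR adjusted p = 2.4e-31), or 209-fold. Usp17ld was at 831, 831 and 822 CPM in induced libraries and at 3.98, 3.69 and 3.51 CPM in uninduced libraries. Its log2 fold change was 7.79 ± 0.06 (SE, edgeR adjusted p = 1.3e-31), or 222-fold. The uninduced values of Usp17lc rest on 126, 113 and 101 counts and those of Usp17ld on 133, 114 and 107, the fewest of the family. The ratio of Usp17ld to Usp17lc counts was 1.08 to 1.12 in induced and 1.01 to 1.06 in uninduced libraries (exact permutation p = 0.1, two-sided, the smallest that 3 against 3 libraries can give).

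All 5 members were thus called higher, against 41.3% of all genes tested, and all 5 were past 16-fold, against 3.39%. The induced and uninduced libraries did not overlap for any of the 5, a separation with induced higher that 41.5% of all genes tested also showed. With library size alone, which called 15.2% of all genes higher and 76.7% lower, all 5 were again higher. The log2 fold changes were then 4.80 for Usp17la, 4.90 for Usp17lb, 6.75 for Usp17lc, 6.83 for Usp17ld and 5.82 for Usp17le, in the same order. All 5 were also higher with upper-quartile factors (35.4% of all genes higher and 47.7% lower), with DESeq2 (40.7% higher and 38.5% lower) and with limma-voom (41.2% higher and 41% lower).

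Scaled by annotated exon length, the levels in both groups ran from Usp17le down through Usp17lb, Usp17la and Usp17ld to Usp17lc. In induced cells Usp17le was at 1920 ± 8.996 CPM per kb, Usp17lb at 661 ± 8.98, Usp17la at 521 ± 6.06, Usp17ld at 417 ± 2.67 and Usp17lc at 306 ± 5.98 (SD, n = 3). In uninduced cells Usp17le was at 17.4 ± 0.632 CPM per kb, Usp17lb at 11.3 ± 0.478, Usp17la at 9.61 ± 0.314, Usp17ld at 1.87 ± 0.120 and Usp17lc at 1.46 ± 0.0976 (SD, n = 3). No neighbours in this order overlapped between libraries. The order rests on the lengths, however, since per kb of coding sequence Usp17la (877 CPM per kb in induced and 16.2 in uninduced cells) stood above Usp17lb (734 in induced and 12.6 in uninduced cells). Usp17lc and Usp17ld have the same coding length, and on that scale their uninduced libraries overlapped. The order also depends on how reads shared between copies were counted.

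The spread of levels among members was narrower in induced than in uninduced cells, as a description with no test. Leaving aside Usp17le, the highest level per kb was 2.16 times the lowest in induced cells and 7.76 times the lowest in uninduced cells. With Usp17le the spread was 6.27 times in induced and 11.9 times in uninduced cells. The lower uninduced levels of Usp17lc and Usp17ld are part of their larger folds by definition, since a fold divides by the uninduced level.

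**Figure D2:**
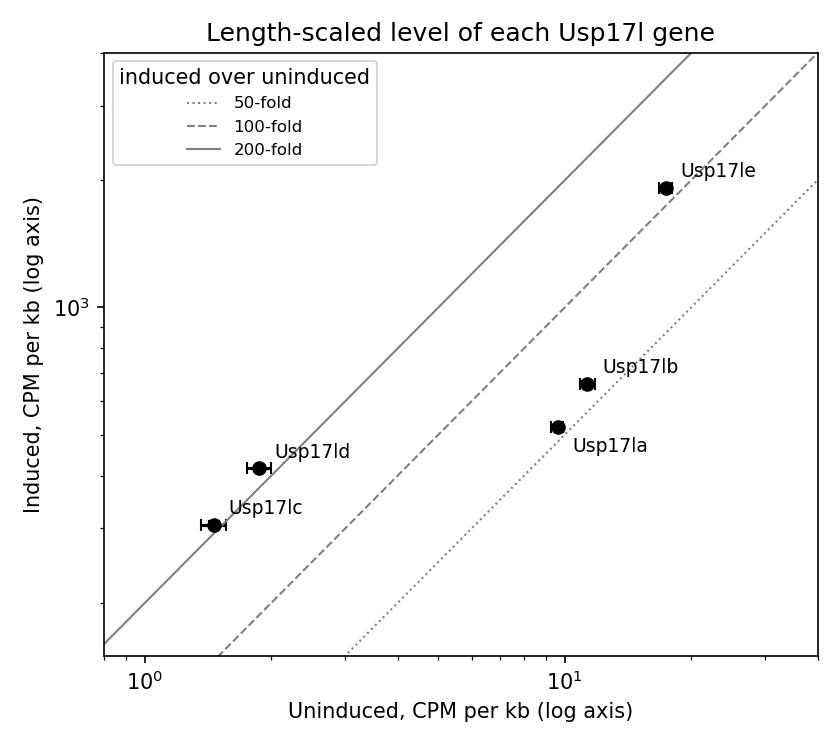
Mean induced level of each Usp17l gene against its mean uninduced level, both as CPM per kb of annotated exon on log axes, with SD bars (n = 3 each) and diagonal lines of equal fold. Usp17lc and Usp17ld lie far to the left, at 1.46 and 1.87 CPM per kb in uninduced cells, whereas Usp17le stands highest at 1920 CPM per kb in induced cells.

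The make-up of the family's counts differed between the groups, a comparison within each library that needs no scaling. Usp17le made up 48.9% ± 0.277 of the family's counts in induced and 40.7% ± 0.230 in uninduced libraries (SD, n = 3 each). Usp17lc made up 9.62% ± 0.138 in induced and 4.20% ± 0.226 in uninduced libraries, and Usp17ld 10.6% ± 0.0105 in induced and 4.38% ± 0.283 in uninduced libraries. These 3 shares were higher in every induced library, and the other 2 lower. Usp17la made up 17.7% ± 0.128 in induced and 29.99% ± 0.396 in uninduced libraries, and Usp17lb 13.2% ± 0.163 in induced and 20.8% ± 0.180 in uninduced libraries. The libraries of the groups did not overlap for any member. Each exact two-sided permutation test gave p = 0.1, the smallest possible here, and 0.1 after adjustment over the 5 members, so none can pass 0.05. The share that rests on the fewest counts, that of Usp17lc in uninduced replicate 3, was 4.02%, with an exact 95% binomial interval of 3.28% to 4.86% that covers counting error only.

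**Figure D3:**
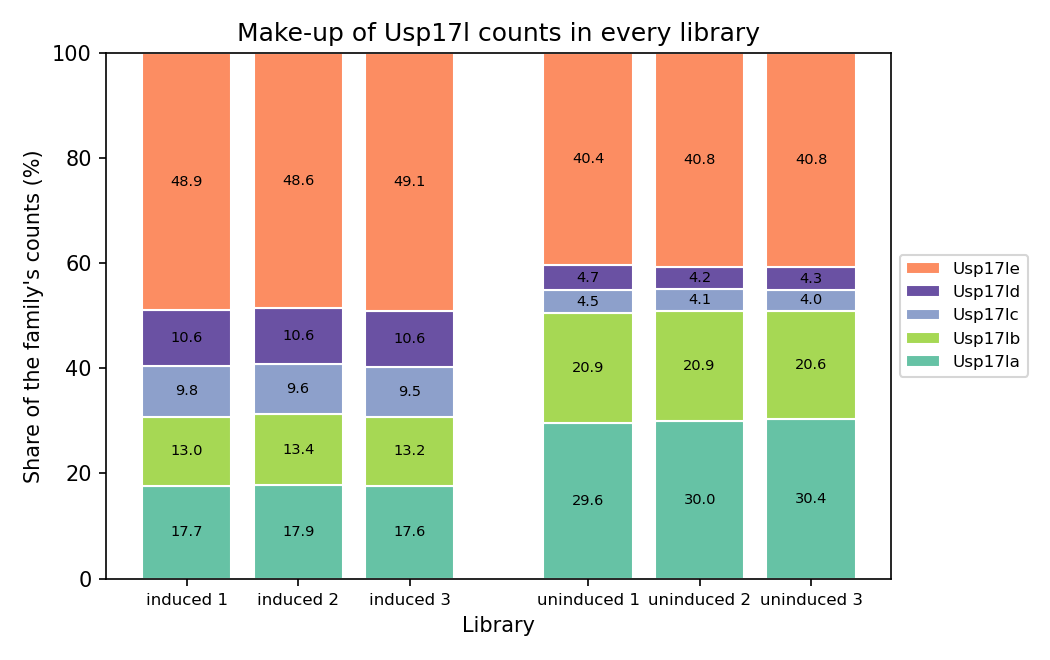
Share of each Usp17l gene in the family's counts (%), 1 stacked bar per library, with the 3 induced libraries left of the 3 uninduced libraries. Usp17lc and Usp17ld take about equal parts within each library and larger parts in induced than in uninduced libraries, whereas those of Usp17la and Usp17lb are smaller in induced libraries.

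Sequence before the annotated starts is shown because the members moved together. RefSeq windows of GRCm38.p6, of 300 bases around each start, were at hand for Usp17la, Usp17lb, Usp17lc and Usp17ld. They were 90.2% to 96.8% identical in pairs. The longest run common to all 4 had 29 bases and opens each of the 140-base stretches below. Capitals mark the 6 letters TATAAA, the letters of a TATA box, where a polymerase complex can assemble, or those at the matching place. Whether they act as a TATA box was not tested. The stretches are chr7:104856875-104857014 (plus strand) for Usp17la, chr7:104842570-104842709 (minus strand) for Usp17lb, chr7:103416513-103416652 (plus strand) for Usp17lc and chr7:103252571-103252710 (minus strand) for Usp17ld.
Usp17la: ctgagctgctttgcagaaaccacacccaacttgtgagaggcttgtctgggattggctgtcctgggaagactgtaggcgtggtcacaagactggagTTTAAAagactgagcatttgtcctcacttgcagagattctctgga
Usp17lb: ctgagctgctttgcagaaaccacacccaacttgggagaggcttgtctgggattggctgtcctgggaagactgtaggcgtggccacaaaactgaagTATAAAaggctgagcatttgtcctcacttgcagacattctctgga
Usp17lc: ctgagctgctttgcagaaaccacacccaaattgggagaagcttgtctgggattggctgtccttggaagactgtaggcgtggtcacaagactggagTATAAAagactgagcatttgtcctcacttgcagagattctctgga
Usp17ld: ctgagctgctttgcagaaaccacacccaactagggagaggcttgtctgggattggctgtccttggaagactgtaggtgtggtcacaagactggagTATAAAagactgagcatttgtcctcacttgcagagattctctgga

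TATAAA, searched on both strands, was found in 3 of these 4 windows and in 13.6% of all 32851 promoter windows. On the sense strand and 20 to 40 bases before the annotated start, it was in 1 of 4 windows and in 1.99% of all windows. The 4 windows are close copies, so they are not independent cases. Usp17la had TTTAAA at the matching place. The 6 letters began 31 bases before the annotated start in Usp17lb, 46 in Usp17la, 88 in Usp17lc and 110 in Usp17ld, so the annotated starts lie at unequal distances from a shared block. Windows were also searched on both strands for TGATT followed after 1 base by AATCA, a palindrome of the kind bound by Dux, and for TAAT followed after 2 bases by AATCA, of the kind bound by DUX4. Neither was found in the 4 windows. The palindrome occurred in 0.0335% and the second motif in 0.35% of all windows. The half-site AATCA alone, which overlaps both, was in 0 of 4 windows and in 37.0% of all windows. These are matches of letters in a short window, and binding elsewhere was not analysed here.

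The other Usp genes, which encode the same class of enzyme, had much smaller folds than the Usp17l family. The table held 50 of these, of which 45 were tested. By edgeR 23 rose, 11 fell and 11 passed in neither direction, with a median log2 fold change of 0.13 beside -0.01 for all genes tested, of which 41.3% were higher and 41.2% lower. With library size alone 8 were higher and 35 lower, where 15.2% of all genes were higher and 76.7% lower. The largest rises were those of Usp53 at 2.62 ± 0.07 and Usp44, a regulator of the mitotic checkpoint, at 2.36 ± 0.19, and the largest falls were those of the imprinted Usp29 at -2.07 ± 0.15 and of Usp40 at -0.99 ± 0.07 (log2 fold change ± SE). The smallest fold in the Usp17l family, that of Usp17la, was thus above the largest of the other tested Usp genes.

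The 5 Usp17l genes had 2.47, 2.47 and 2.47 times the counts of the 50 other Usp genes together in induced libraries, against 0.0333, 0.0360 and 0.0346 times in uninduced libraries. On the log2 scale this ratio was 6.16 higher in induced libraries (exact permutation p = 0.1, two-sided, the smallest possible, and 0.1 adjusted over 3 such ratios).

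**Figure D4:**
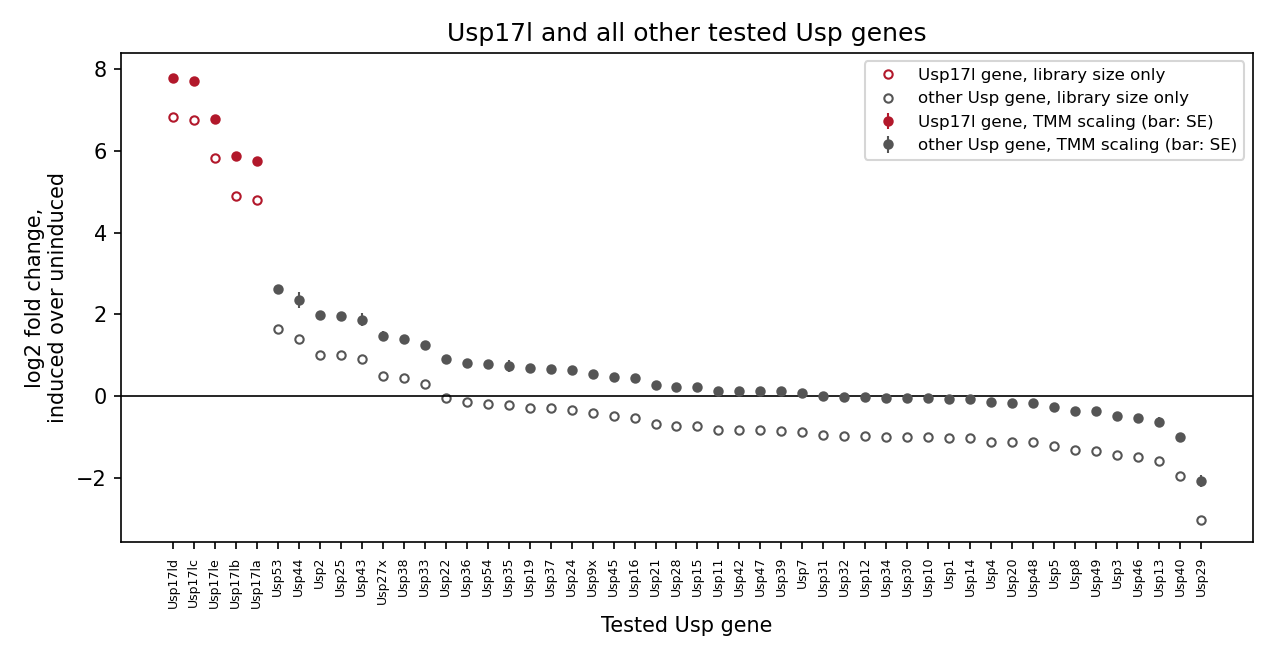
Log2 fold change, induced over uninduced, of the 5 Usp17l genes and the 45 other tested Usp genes, with SE bars, as filled points for TMM scaling and as open points for library size as the only scaling. The Usp17l genes, from 5.76 to 7.79 with TMM scaling, lie above every other Usp gene, of which the highest is Usp53 at 2.62.

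Set against 2 other families of the cleavage-stage embryo, the Usp17l sum had a smaller fold than the Zscan4 sum. Usp17l counts were 0.0319, 0.0312 and 0.0311 times those of the 5 Zscan4 genes in induced libraries, against 0.0879, 0.0913 and 0.0885 times in uninduced libraries. The ratio was thus 2.84 times smaller in induced libraries (exact permutation p = 0.1, adjusted 0.1). Relative to the 5 Tdpoz genes, Usp17l counts were 19.4, 19.6 and 19.2 times as many in induced libraries, against 54.4, 52.5 and 50.3 times in uninduced libraries, a difference of -1.43 on the log2 scale (exact permutation p = 0.1, adjusted 0.1). Taking the mean of the members' log2 values in place of their sum, with a small constant added to each count, this difference was -0.45 (exact permutation p = 0.2). The Tdpoz sum was only 1.63 ± 0.0639 CPM in uninduced cells (SD, n = 3), so both Tdpoz differences rest on few uninduced counts.

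The genes with the most similar profile were sought among 11261 tested genes with at least 1 CPM on average and a count in every library, the last condition added after the data were seen. Likeness was the Euclidean distance between log2 CPM profiles over the 6 libraries, each centred on its mean. The nearest to the Usp17l sum were Fam124a and Cfap52, a gene of motile cilia, both at a distance of 0.478, then Tacr3, the receptor of neurokinin B, at 0.551, Dcdc2c at 0.575 and Cmya5 at 0.763. They lie on chromosomes 14, 11, 3, 12 and 13, none of them with the family on chromosome 7. Dcdc2c reached 1612 ± 150.3 CPM in induced and 13.02 ± 0.960 CPM in uninduced cells (SD, n = 3 each), whereas Cmya5 was at 6.53 ± 0.299 CPM in induced and 0.0833 ± 0.0315 CPM in uninduced cells. In uninduced libraries 3 counts stand for 0.0898 to 0.0983 CPM. The uninduced levels of Cmya5 and of Tacr3 (0.169 ± 0.0350 CPM, SD, n = 3) thus rest on very few counts, and their distances are less certain. With only 2 conditions, the profile is in the main a single fold.

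Other genes around the family were mostly silent. The table held 88 genes that lie between the outermost members or start within 100 kb of a member, 70 of them olfactory receptor genes. Of the 88, 63 had no count in any library, 57 of them olfactory receptor genes, beside 5439 of all 24028 genes. Among the 18 neighbours of other classes, 6 had no count. Whether olfactory receptor genes elsewhere were as often without counts was not tested. Only 2 of the 88 had enough counts to be tested, and both were higher, as were 41.3% of all genes tested. Olfr613, an olfactory receptor gene 131 kb from Usp17lc, had 1248, 1250 and 1296 counts in induced libraries, against 178, 162 and 180 in uninduced libraries. That is 75.5 ± 4.97 CPM in induced and 5.49 ± 0.358 CPM in uninduced cells (SD, n = 3 each), and the log2 fold change came to 3.78 ± 0.07 (SE, edgeR adjusted p = 2.6e-23). Trim12c, a tripartite-motif gene 415 kb from Usp17le, was at 6.55 ± 0.852 CPM in induced and 2.32 ± 0.280 CPM in uninduced cells, a log2 fold change of 1.49 ± 0.15 (SE).

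Of the 26 genes in the table within 100 kb of a member, 18 had no count, and the other 8, all olfactory receptor genes, had counts in induced libraries alone. The most were at Olfr666, chosen after its values were seen, beyond Usp17la, with 7, 14 and 3 counts in induced and 0 in each uninduced library, and the other 7 had 1 to 11 counts over the 3 induced libraries. Over the wider set of 70 neighbouring olfactory receptor genes, 15.7% had counts in induced libraries alone, beside 11.7% of the 1038 elsewhere in the table and 7.35% of all 24028 genes. The same 11.7% and 7.35% stand beside the 8 of 26 near a member, a number that rests on few counts and was not tested.

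**Figure D5:**
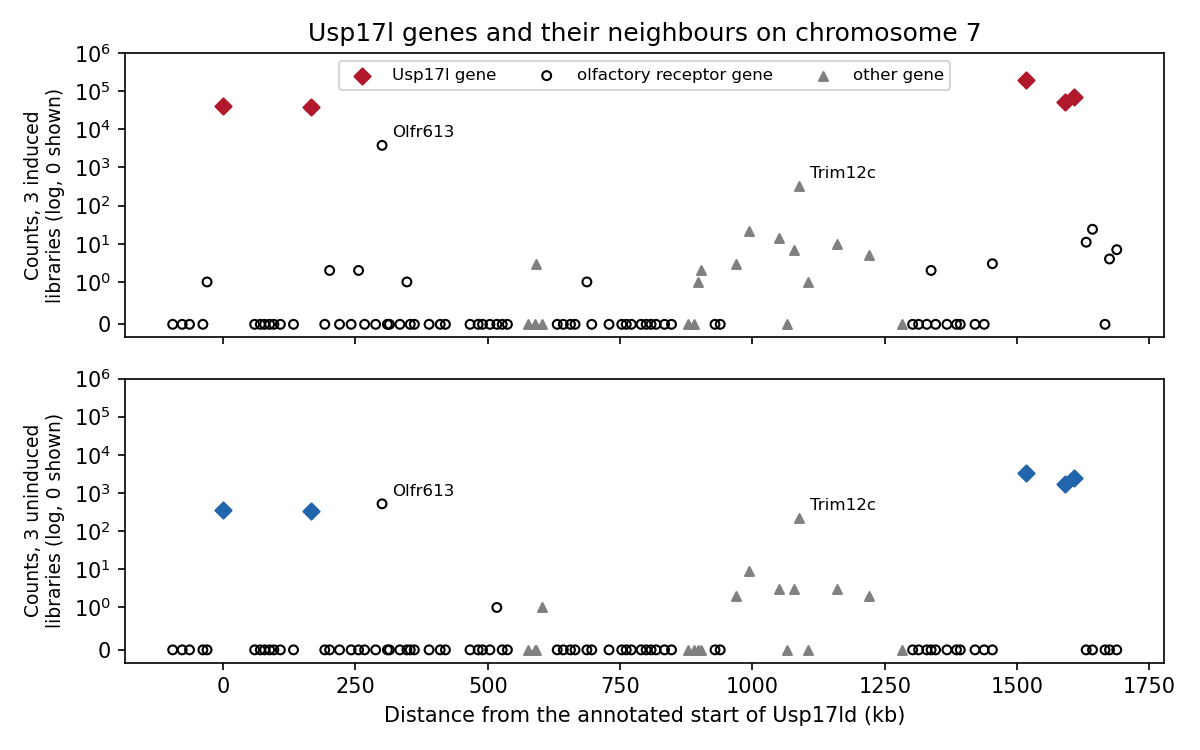
Counts summed over 3 libraries, induced above and uninduced below, for the Usp17l genes (diamonds) and the 88 neighbouring genes of the table, by distance from the annotated start of Usp17ld in kb, on a log axis that also shows 0. Most neighbours lie at 0 in both panels, and Olfr613 and Trim12c are the 2 that were tested.

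Genes of cytokine receptors and of the JAK-STAT pathway, feedback inhibitors included, were called in either direction about as often as all genes. Cytokines were found to switch on Dub genes in blood cells through genes of this class. Whether each gene listed takes part was not examined. Of 21 such receptor and JAK-STAT genes, 16 were tested, with 7 higher, 6 lower and 3 not called and a median log2 fold change of -0.15, beside 41.3% higher, 41.2% lower and a median of -0.01 for all genes tested. Cish, a feedback inhibitor and STAT5 target, was at 2.73 ± 0.18 and the kinase Jak2 at 2.01 ± 0.05, while Tyk2, a related kinase, was at -0.96 ± 0.10 and the receptor chain Csf2rb2 at -1.49 ± 0.56 on few counts (log2 fold change ± SE). Scaled by library size alone, 5 were higher and 11 lower, beside 15.2% higher and 76.7% lower of all genes. Il3ra, the interleukin-3 receptor gene, had a log2 fold change of -0.26 (edgeR adjusted p = 0.078) and is named outside the rule, with its value known. Il2ra, of the interleukin-2 receptor that acts on Dub2, had no count in any of the 6 libraries. The other chains of that receptor were counted. Il2rb had 3, 3 and 1 counts in induced and 10, 7 and 3 in uninduced libraries. Il2rg was at 0.44 ± 0.14 (log2 fold change ± SE, edgeR adjusted p = 0.0072) and at -0.52 with library size alone. These chains are also named outside the rule, with their values known.

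Blood cell markers were nearly absent. Among 10 such markers the summed level was 3.75 to 4.10 CPM in induced and 1.53 to 2.13 CPM in uninduced libraries, most of it from Cd68 and Coro1a. Cd3e had 1 count in all, in an uninduced library, and Ptprc, the pan-leukocyte marker, had 1, 1 and 1 counts in induced and 0, 1 and 0 counts in uninduced libraries. Of the 2 markers tested Coro1a was higher, at 2.10 ± 0.25 on the log2 scale, as were 41.3% of all genes tested. Cd68 was at 0.19 (edgeR adjusted p = 0.54). With library size alone Coro1a was higher, at 1.14, and Cd68 lower, at -0.77, where 15.2% of all genes were higher and 76.7% lower.

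Proteins that the human USP17 enzymes are reported to act on were examined at the level of their transcripts. All 16 genes were tested, with 11 higher, 3 lower and 2 not called, and a median log2 fold change of 0.27, beside 41.3% higher and 41.2% lower of all genes tested. Scaled by library size alone, 2 were higher and 12 lower, where all genes were 15.2% higher and 76.7% lower. Il33, a cytokine of the interleukin-1 family, was at 3.36 ± 0.09 (log2 fold change ± SE) and at 2.40 with library size alone. Gmnn, which encodes the replication inhibitor geminin, was at -0.74 ± 0.07 (log2 fold change ± SE). Cdc25a, the cell cycle phosphatase best known as a target of DUB3, was at 0.57 with TMM scaling and at -0.40 with library size alone, and was chosen after its values were seen.

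Genes for ubiquitin itself and for the E1 enzymes that activate it had small changes whose sign depended on the scaling. All 6 were called higher, beside 41.3% of all genes tested, with a median log2 fold change of 0.44. With library size alone none was higher and 5 were lower, beside 15.2% higher and 76.7% lower of all genes, and the median was -0.52. The largest values were 0.85 ± 0.06 for Uba6, an E1 enzyme, and 0.78 ± 0.04 for the polyubiquitin gene Ubb (log2 fold change ± SE), which were at -0.11 and -0.19 with library size alone.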

How the data were processed

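Polyadenylated RNA of 6 cultures was made into TruSeq libraries, per the labels' protocols. Reads were aligned to mm10, the same assembly as GRCm38, per the submitters' processing notes, which name Bowtie2 2.2.3, TopHat2 2.0.12 and CASAVA. The authors deposited raw counts per gene. How reads were counted (tool, strand, several alignments, read length, annotation) is not given in the sources used here.

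Unchanged counts entered edgeR 4.0.16 in R 4.3.3 (filterByExpr, TMM, robust glmQLFit, two-sided glmQLFTest on group alone) across 12969 genes, with Benjamini-Hochberg adjustment over all of them and a threshold of 0.05. Each SE is |log2 fold change| over the square root of F. The fit was also run on simulated counts with a small part of the genes changed, equally up and down. It did not test the scaling under changes as broad as those in these data. The family sum was fitted in the same table with the 5 rows replaced by their sum. Shares and ratios of counts were compared with exact permutation tests over libraries. Per-kb levels used merged exon lengths of GENCODE M21, and sequences came from GENCODE M21 and RefSeq, aligned with Biopython 1.88. All 5 members matched RefSeq.

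The series description gives separate cultures of 1 clonal line, so p-values measure the spread between cultures of this clone. Members and gene lists were chosen with earlier results of these data known. From each list up to 2 rising and 2 falling genes with the largest changes past the threshold were named, from the neighbours up to 3 and, as most alike, 5 without provisional symbols. Some genes that the rule names are not reported here. For the most alike, genes with a 0 in any library were left out, a choice made after seeing the data. Alternatives were other scalings and filters, DESeq2 1.42.0, limma-voom (limma 3.58.1), robust=FALSE, a replicate block and each library left out.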

Additional observations from a re-analysis of the deposited data

How the results depend on the processing

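All 5 members were called higher under each of the 16 alternatives, and each member's log2 fold change kept its direction. That of the family sum ranged from 5.56 (library size only) to 6.55 (at least 10 CPM in 3 libraries), and from 6.49 to 6.54 when 1 library was left out. With the replicate number as a block it was 6.52. Whether the numbers pair the samples cannot be settled from 3 libraries a group. Same-numbered libraries deviated together only weakly, at r = 0.0166 to 0.0604, but each correlated best with its own number. Differences in share and in the ratios to other families kept their direction in every alternative run, but with 3 libraries a group no exact test can pass 0.05.

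Counts for the gene lists depended on the scaling, which with library size only moved all genes down. With library size only, 76.7% of all genes tested were lower and 15.2% higher. Lower were then 11 of 16 cytokine pathway genes, 12 of 16 reported USP17 substrates and 5 of 6 ubiquitin and E1 genes. So were 35 of 45 other Usp genes and 1 of 2 blood cell markers. Higher were 2 of the 16 substrates, 0 of the 6 ubiquitin and E1 genes and 8 of the 45 other Usp genes. With upper-quartile factors 17 of the 45 other Usp genes were lower, beside 47.7% of all genes tested. The depth limits the uninduced levels of Usp17lc and Usp17ld most, with as few as 101 counts in a library.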
